A study of Mus musculus with 8 samples.

Results

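Lipoprotein receptors and sterol efflux in the fasted liver were followed through 10 genes of 45706 in the count table, taken by name. The list was drawn up with earlier results of these data known. They were the receptor genes Vldlr, Lrp1 and Scarb1, the lipase genes Lipc and Lpl, the cholesterol esterification gene Lcat, and the transporter genes Abca1, Abcg1, Abcg5 and Abcg8. All 10 passed the filter on low counts that left 14629 genes for testing.

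The liver both takes lipoproteins out of the blood and sends cholesterol out again. Receptors on hepatocytes and on the cells of the sinusoid wall bind lipoproteins and the remnants left after lipases have removed triglyceride. Cholesterol leaves the cell by several routes. ABCA1 loads it with phospholipid onto apolipoprotein A-I to form HDL, in which LCAT makes cholesteryl esters, whereas ABCG5 and ABCG8 together pump sterols across the canalicular membrane into bile. Several of these transporter genes are known targets of the oxysterol receptors LXR.

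The livers came from female C57BL/6J mice aged 4 months after an overnight fast, 4 WT and 4 SA/SA, and each gave 1 library. SA/SA mice carry the PLIN5 S155A change on both alleles and in the whole body, with alanine in place of a serine of this lipid droplet protein, which therefore cannot be phosphorylated there. The study asked whether that phosphorylation is needed for the expression of lipid metabolism genes in fasting, and no fed mice were analysed here. The values are CPM, counts scaled to library size after TMM normalization, in libraries of 39709785 to 54540864 estimated counts. The labels carry a number for each mouse, under 200 for replicates 1 and 4 and over 800 for replicates 2 and 3 of each genotype. What sets these number series apart is not given in the sources used here, and values are given within each low and high number series, with 2 mice per genotype, beside the pooled ones.

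The labels name hepatocytes as the cell type and liver as the tissue, and markers of other liver cells were present. The 8 hepatocyte markers summed to between 87077 and 126902 CPM per mouse. The 11 Kupffer cell and macrophage markers summed to 322 to 642 CPM in WT and 329 to 678 CPM in SA/SA mice, with none at 0. Their log2 fold change was above 0 for 11 of 11 genes, as it was for 12 of 12 lymphocyte markers, 2 of 9 sinusoidal endothelial markers and 0 of 8 stellate cell markers, and 0 genes of these lists passed the test. The 8 stellate cell markers summed to 284 to 379 CPM in WT and 137 to 308 CPM in SA/SA mice. The 9 sinusoidal endothelial markers summed to 186 to 278 CPM in WT and 141 to 207 CPM in SA/SA mice. Lymphocyte markers summed to 20.9 to 49.3 CPM in 7 mice other than SA/SA replicate 3, where they reached 2069 CPM, and red blood cell markers ranged from 411 to 2646 CPM. The sum was 27.2 to 85.5 CPM for cholangiocyte markers, 82.4% of it from Spp1, and 4.32 to 43.3 CPM for pancreatic acinar markers, highest in WT replicate 2. Adipocyte markers summed to 42.3 to 136 CPM, 93.1% of it from Cidec, with Lep at 0 and Adipoq at 0.026 to 0.40 CPM. Plin5 itself was at 182 to 254 CPM in WT and 192 to 457 CPM in SA/SA mice. Its log2 fold change was 0.67 (standard error 0.24, unadjusted p = 0.0193, adjusted p = 0.993 in edgeR's test), and the groups overlapped. These values do not check the edit, since counts per gene do not read a codon.

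Per length of transcript, Lcat stood far above the other 9 genes at 417 ± 33.4 CPM per kb over the 8 mice (SD). Lipc, the hepatic lipase gene, followed at 91.9 ± 23.5 CPM per kb, Scarb1 at 71.5 ± 11.4 CPM per kb and Lrp1 at 52.1 ± 8.77 CPM per kb. The biliary transporter genes lay in the middle of the order, Abcg5 at 24.4 ± 5.85 and Abcg8 at 18.4 ± 3.57 CPM per kb. Abcg8 was divided by its longest coding transcript, of 3667 bases, and its others have 2415 and 2284 bases. Which of these genes is the higher per kb depends on that choice. Vldlr, Scarb1 and Lipc were also divided by their longest coding transcript. Abca1 was at 8.92 ± 2.54 CPM per kb. The lowest levels were those of Vldlr, at 2.83 ± 1.12 CPM per kb, of Lpl, at 2.39 ± 0.925 CPM per kb, and of Abcg1, at 0.653 ± 0.186 CPM per kb, and VLDL receptor, lipoprotein lipase and ABCG1 are proteins best known from muscle, fat and macrophages. The ranges of the 8 mice overlapped between the neighbours Lipc and Scarb1, Scarb1 and Lrp1, Abcg5 and Abcg8, and Vldlr and Lpl, and did not overlap between the other neighbours in this order.

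**Figure D1:**
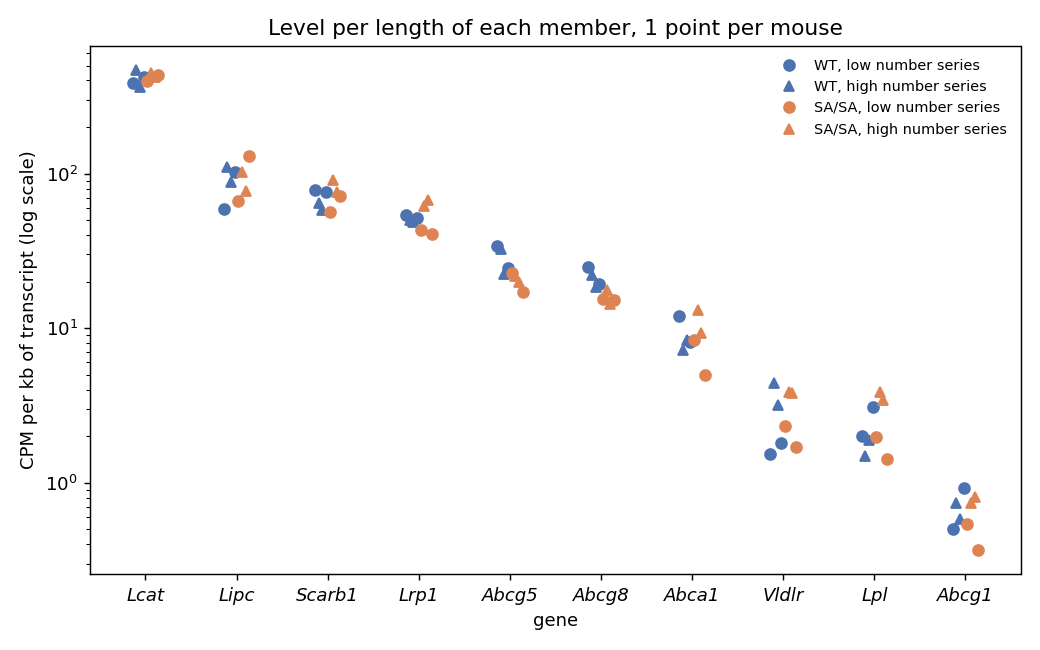
CPM per kb of transcript on a log axis for each of the 10 genes, 1 point per mouse, with colour for genotype and shape for number series. Lcat lies between 365 and 468 CPM per kb and Abcg1 between 0.366 and 0.927 CPM per kb.

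Between genotypes, the genes of biliary sterol export had lower means in SA/SA mice, and the groups of the other 8 genes overlapped widely. Abcg8 averaged 77.5 ± 10.3 CPM in WT and 57.4 ± 5.21 CPM in SA/SA livers, and Abcg5 averaged 66.7 ± 13.3 and 48.0 ± 5.76 CPM (mean ± SD, n = 4 per genotype, as in all means that follow). Neither passed the test over all genes. In edgeR's quasi-likelihood test with Benjamini-Hochberg adjustment, 0 of the 10 genes had an adjusted p under 0.05, where the share of all genes tested was 0.0%, and DESeq2 called 0 of the 10 genes and 0.041% of all genes. With limma-voom 0 of the 10 genes were called. At an unadjusted p under 0.05 there were 2 of the 10 genes, both lower in SA/SA mice, where 3.4% of all genes tested reached this level, 1.98% on the lower and 1.42% on the higher side. Of the 10 genes, 6 had a log2 fold change above 0 and 4 below 0, with a median of 0.06 beside -0.005 over all genes tested. The median size of the log2 fold change was 0.10 for the 10 genes and 0.14 for all genes tested. The labels call the mice biological replicates. The p-values set the genotype difference against the spread between them, which in this pooled fit includes any difference between the number series.

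**Figure D2:**
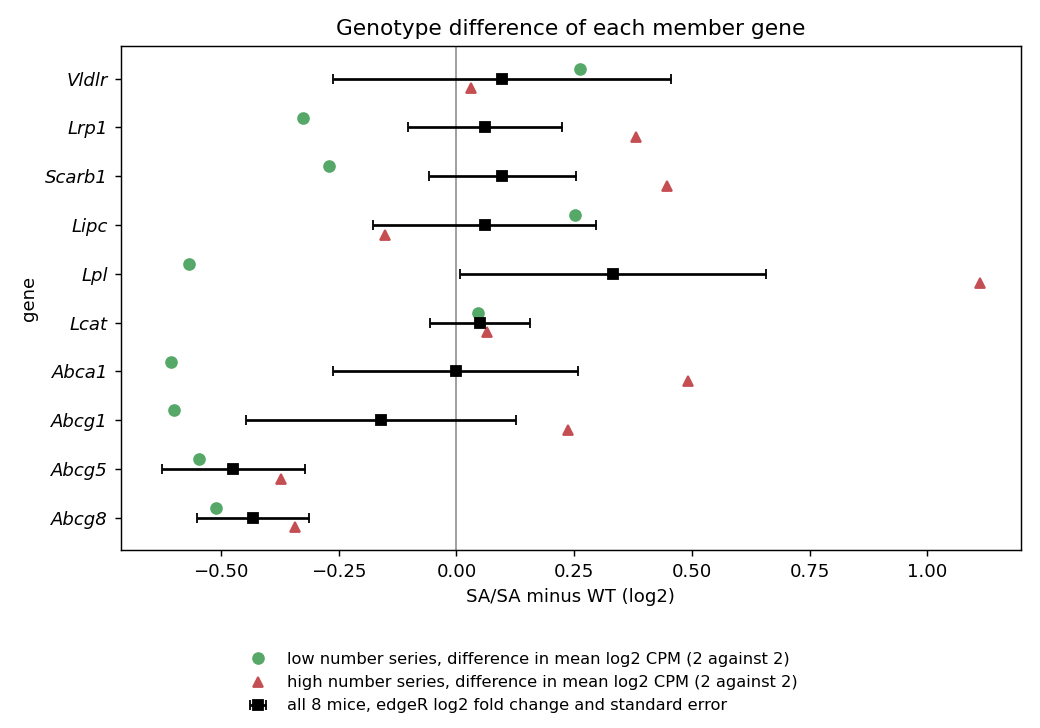
Difference between SA/SA and WT mice on the log2 scale for each gene: black squares are the edgeR log2 fold change with its standard error over all 8 mice, green circles and red triangles the difference in mean log2 CPM within the low and the high number series (2 mice against 2). Abcg5 and Abcg8 lie below 0 by all 3 measures, while Lrp1, Scarb1, Lpl, Abca1 and Abcg1 lie below 0 in the low and above 0 in the high series.

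Abcg8 (ENSMUSG00000024254) and Abcg5 (ENSMUSG00000040505) encode the partners of the ABCG5/ABCG8 heterodimer, each of which needs the other to reach the cell surface. They lie head to head on chromosome 17 (GRCm38, GENCODE release M21), Abcg5 at 84658234 to 84683011 in reverse and Abcg8 at 84676302 to 84700333 in forward orientation. The RefSeq start sites 84683011 for Abcg5 and 84683121 for Abcg8 have 109 bases between them. A stretch of 209 bases therefore belongs to both promoter windows of 250 bases before to 50 after the start. RefSeq also has an Abcg8 start site at 84676302, within Abcg5, whose window does not overlap that of Abcg5. The Abcg5 window is shown because it holds 84683011 and 84683121, start sites of the genes with the lowest p-values among the 10. It is chr17:84682962-84683261 on the reverse strand (RefSeq, GRCm38.p6), and the capitals mark matches to GATAA, the core letters bound by GATA factors, on either strand:
Abcg5 promoter: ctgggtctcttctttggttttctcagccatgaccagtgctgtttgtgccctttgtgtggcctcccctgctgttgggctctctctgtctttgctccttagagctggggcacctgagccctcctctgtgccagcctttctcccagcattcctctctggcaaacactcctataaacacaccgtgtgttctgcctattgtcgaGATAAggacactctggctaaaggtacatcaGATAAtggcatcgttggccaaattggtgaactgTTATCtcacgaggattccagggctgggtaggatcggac
The window holds 3 matches, which begin at -51, -21 and 13 bases from the Abcg5 start site, and the same letters lie at -126, -93 and -63 in the Abcg8 window that overlaps it. Of 32817 promoter windows of this length, 25.4% hold at least 1 match and 0.939% hold at least 3. A match is a description of the letters only.

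Abcg8 was at 90.6, 80.4, 67.8 and 71.0 CPM in WT replicates 1 to 4 and at 56.9, 64.7, 52.4 and 55.6 CPM in SA/SA replicates 1 to 4. Every SA/SA mouse was below every WT mouse, the nearest being SA/SA replicate 2 and WT replicate 3. On the log2 scale the SA/SA mice were at -0.43 relative to WT with a standard error of 0.12, which edgeR ranked 26 of the genes tested (unadjusted p = 0.00441, adjusted p = 0.993), and the adjusted p from DESeq2 was 0.457. By exact permutation (two-sided) p was 0.0286, the smallest value possible with 4 mice in each group. Abcg8 was the gene of the 10 with no overlap between genotypes, where 2.3% of all genes tested did not overlap and 1.36% did not overlap and were lower.

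Abcg5 was at 79.8, 76.1, 52.9 and 58.0 CPM in WT replicates 1 to 4 and at 53.5, 51.4, 46.8 and 40.5 CPM in SA/SA replicates 1 to 4. The groups overlapped only through WT replicate 3, which was just below SA/SA replicate 1, and with either of these mice left out they did not overlap. Its log2 fold change of -0.47 had a standard error of 0.15 and ranked 83 in edgeR (unadjusted p = 0.0112, adjusted p = 0.993), and the exact permutation p was 0.0571. With each mouse left out in turn, SA/SA replicate 3 with its high lymphocyte markers included, the log2 fold change was between -0.57 and -0.37 for Abcg5 and between -0.49 and -0.34 for Abcg8. The values rest on 1772 to 4281 counts of Abcg5 and 1987 to 4861 counts of Abcg8 per mouse.

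Both genes had lower SA/SA means within each number series. Mean Abcg8 was 80.8 CPM in WT and 56.3 CPM in SA/SA mice of the low series, and 74.1 CPM in WT and 58.6 CPM in SA/SA mice of the high series. Mean Abcg5 was 68.9 and 47.0 CPM in the low series and 64.5 and 49.1 CPM in the high series. Neither gene overlapped between genotypes in either series, and 3.0% of all genes tested were lower in SA/SA mice without overlap in both series. The interaction of genotype with number series was 0.18 for Abcg8 and 0.16 for Abcg5 on the log2 scale, with adjusted p = 0.825 and 0.896 in edgeR's test, and that of Abcg8 was 0.00042 without WT replicate 1 and 0.35 without WT replicate 4.

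Across the 8 mice the genes also ranked alike. Pearson's r of log2 CPM was 0.92 (exact permutation p = 0.00156, 0.0703 adjusted over 45 pairs of the 10 genes) and Spearman's rho was 0.90 (exact permutation p = 0.00456, 0.205 adjusted). Without the 2 mice farthest from the median Abcg5, r was 0.72. It was 0.93 in the 4 mice of the low and 0.90 in the 4 mice of the high series, which both hold the genotype difference, and it was 0.96 in the 4 WT and 0.46 in the 4 SA/SA mice. After each genotype's mean was taken out, r was 0.81 (0.337 adjusted), and the points share libraries and a locus. The genes overlap on opposite strands by 82 exon bases, and the strand setting of the counting is not given in the sources used here.

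**Figure D3:**
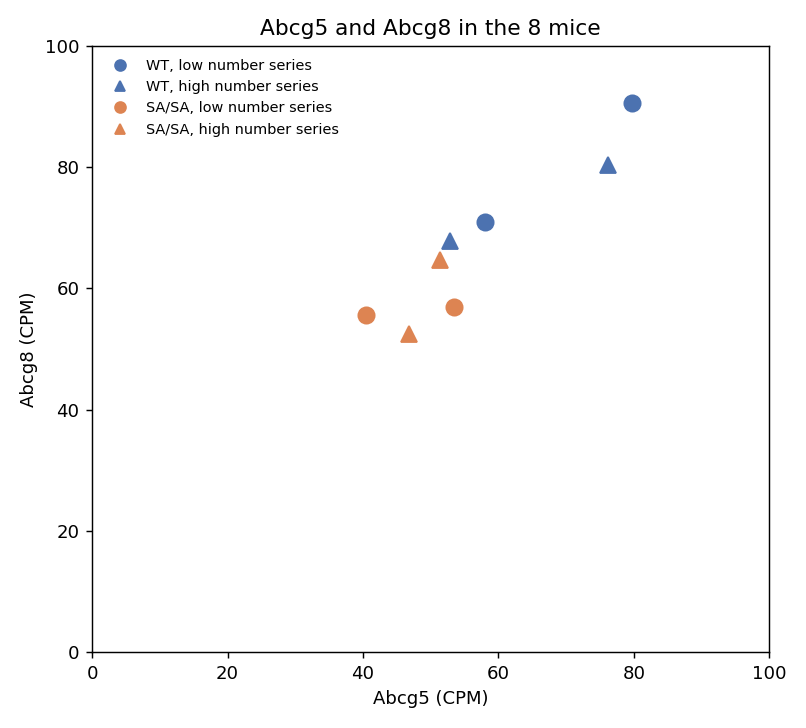
Abcg8 against Abcg5, both in CPM, 1 point per mouse, with colour for genotype and shape for number series. The 4 SA/SA mice lie at the lower left, from 52.4 to 64.7 CPM of Abcg8, and the 4 WT mice lie from 67.8 to 90.6 CPM of Abcg8.

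Abca1 (ENSMUSG00000015243), which starts HDL formation, had nearly equal means in the genotypes, 91.6 ± 21 CPM in WT and 91.4 ± 33.9 CPM in SA/SA mice. The gene covers positions 53030787 to 53159895 of chromosome 4, reverse strand. Its promoter window, chr4:53159846-53160145 on the reverse strand (RefSeq, GRCm38.p6), is shown because Abca1 is a widely used LXR target gene:
Abca1 promoter: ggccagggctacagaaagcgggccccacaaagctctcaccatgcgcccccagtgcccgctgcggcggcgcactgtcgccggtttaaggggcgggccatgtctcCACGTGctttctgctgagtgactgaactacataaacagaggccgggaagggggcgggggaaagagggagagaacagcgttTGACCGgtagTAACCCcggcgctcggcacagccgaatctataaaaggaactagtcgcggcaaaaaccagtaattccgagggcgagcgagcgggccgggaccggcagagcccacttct
The capitals at -147 from the start site are CACGTG, an E-box, which 7.15% of the promoter windows hold. Those that begin at -67 are the outer letters of a match to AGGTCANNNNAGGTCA, the repeat with 4 spacer bases bound by LXR with RXR, on the reverse strand and with 3 of 12 compared letters different. Of all promoter windows 21.9% hold a match with up to 3 mismatches, and no such match is in the Abcg5 window or in the Abcg8 window that overlaps it. A window of Lipc and the window of Lcat hold matches both to this repeat and to GATAA. These matches too describe letters only, and their part in the levels of the genes was not tested. Sites outside the windows were not searched.

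Abca1 was at 122, 74.1, 86.4 and 83.7 CPM in WT replicates 1 to 4 and at 86.1, 134, 94.8 and 51.2 CPM in SA/SA replicates 1 to 4. The extremes were both SA/SA mice, replicate 4 low and replicate 2 high, and the groups overlapped throughout. With a log2 fold change of -0.002 and a standard error of 0.26, the adjusted p in edgeR was 0.9998 (exact permutation p = 0.943). In the low series the SA/SA mean was the lower, at 68.7 CPM beside 103 CPM in WT, and in the high series the higher, at 114 CPM beside 80.2 CPM. The interaction was 1.09 (standard error 0.40, unadjusted p = 0.0235, adjusted p = 0.369 in edgeR's test).

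Abcg1 (ENSMUSG00000024030; chromosome 17, 31057675 to 31117988, forward strand) moves cholesterol to HDL, mainly in macrophages. With 108 to 274 counts per mouse it was the gene with the fewest counts of the 10. It was at 2.91, 4.34, 3.41 and 5.41 CPM in WT replicates 1 to 4 and at 3.17, 4.34, 4.75 and 2.14 CPM in SA/SA replicates 1 to 4. The groups overlapped, with WT replicate 4 highest and SA/SA replicate 4 lowest. SA/SA mice were at -0.16 relative to WT (log2, standard error 0.29; edgeR adjusted p = 0.996), and the interaction of 0.88 had an adjusted p of 0.562 and was 0.36 without WT replicate 4. Abca1 and Abcg1 gave an r of 0.42 across the 8 mice (exact permutation p = 0.308, 0.885 adjusted over the 45 pairs) and a rho of 0.071 (exact permutation p = 0.882, 0.992 adjusted), and r was -0.52 without the 2 mice farthest from the median Abca1.

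Lcat (ENSMUSG00000035237; chromosome 8, 105939551 to 105943382, reverse strand) encodes the plasma enzyme that esterifies cholesterol in HDL and is made largely by hepatocytes. It varied least between mice. It was at 550.0 ± 59.7 CPM in WT and 569.6 ± 29.4 CPM in SA/SA mice, 0.05 apart on the log2 scale with a standard error of 0.11 (edgeR adjusted p = 0.996). SA/SA minus WT came to 0.05 in the low and 0.07 in the high series (mean log2 CPM), and the range of the 8 mice was 490.3 to 628 CPM.

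The receptor genes Lrp1 and Scarb1 had similar means in the genotypes, with SA/SA mice on both sides of the WT mice. Lrp1 (ENSMUSG00000040249; chromosome 10, 127538161 to 127621148, reverse strand, 89 exons) encodes the large endocytic receptor for remnants. It was at 802, 741, 728 and 767 CPM in WT replicates 1 to 4 and at 643, 917, 998 and 609 CPM in SA/SA replicates 1 to 4. SA/SA replicates 1 and 4, of the low series, were below every WT mouse, and SA/SA replicates 2 and 3, of the high series, were above every WT mouse. Over all mice the genotypes were 0.06 apart on the log2 scale (standard error 0.16, edgeR adjusted p = 0.996), and the SD was 32.8 CPM in WT and 195.0 CPM in SA/SA mice.

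Scarb1 (ENSMUSG00000037936; chromosome 5, 125277087 to 125341094, reverse strand) encodes SR-BI, which takes cholesteryl esters from HDL into the hepatocyte. It was at 196, 162, 146 and 192 CPM in WT replicates 1 to 4 and at 143, 229, 192 and 181 CPM in SA/SA replicates 1 to 4. Within the low series both SA/SA mice were below both WT mice, and within the high series both were above. Pooled over the series, the log2 difference was 0.10 with a standard error of 0.16 (edgeR adjusted p = 0.993), and the exact permutation p was 0.686.

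Vldlr (ENSMUSG00000024924; chromosome 19, 27216484 to 27254231, forward strand), a receptor for triglyceride-rich lipoproteins, differed between the number series and not by genotype in these mice. It was at 12.2, 14.4, 18.7 and 13.6 CPM in WT replicates 1 and 4 and SA/SA replicates 1 and 4, the low series, and at 35.2, 25.2, 30.7 and 30.2 CPM in WT replicates 2 and 3 and SA/SA replicates 2 and 3, the high series. The series did not overlap, which held for 6.85% of all genes tested. The difference between series was 1.05 on the log2 scale (standard error 0.15, unadjusted p = 5.6e-05, adjusted p = 0.0618 in edgeR's test), rank 13. The adjusted p was 0.029 without WT replicate 3 and 5.4e-07 with DESeq2, which called 1 of the 10 genes and 2.78% of all genes for the series. Between genotypes it differed by 0.10 on the log2 scale (standard error 0.36, edgeR adjusted p = 0.996), with means of 21.8 ± 10.6 CPM in WT and 23.3 ± 8.53 CPM in SA/SA mice.

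**Figure D4:**
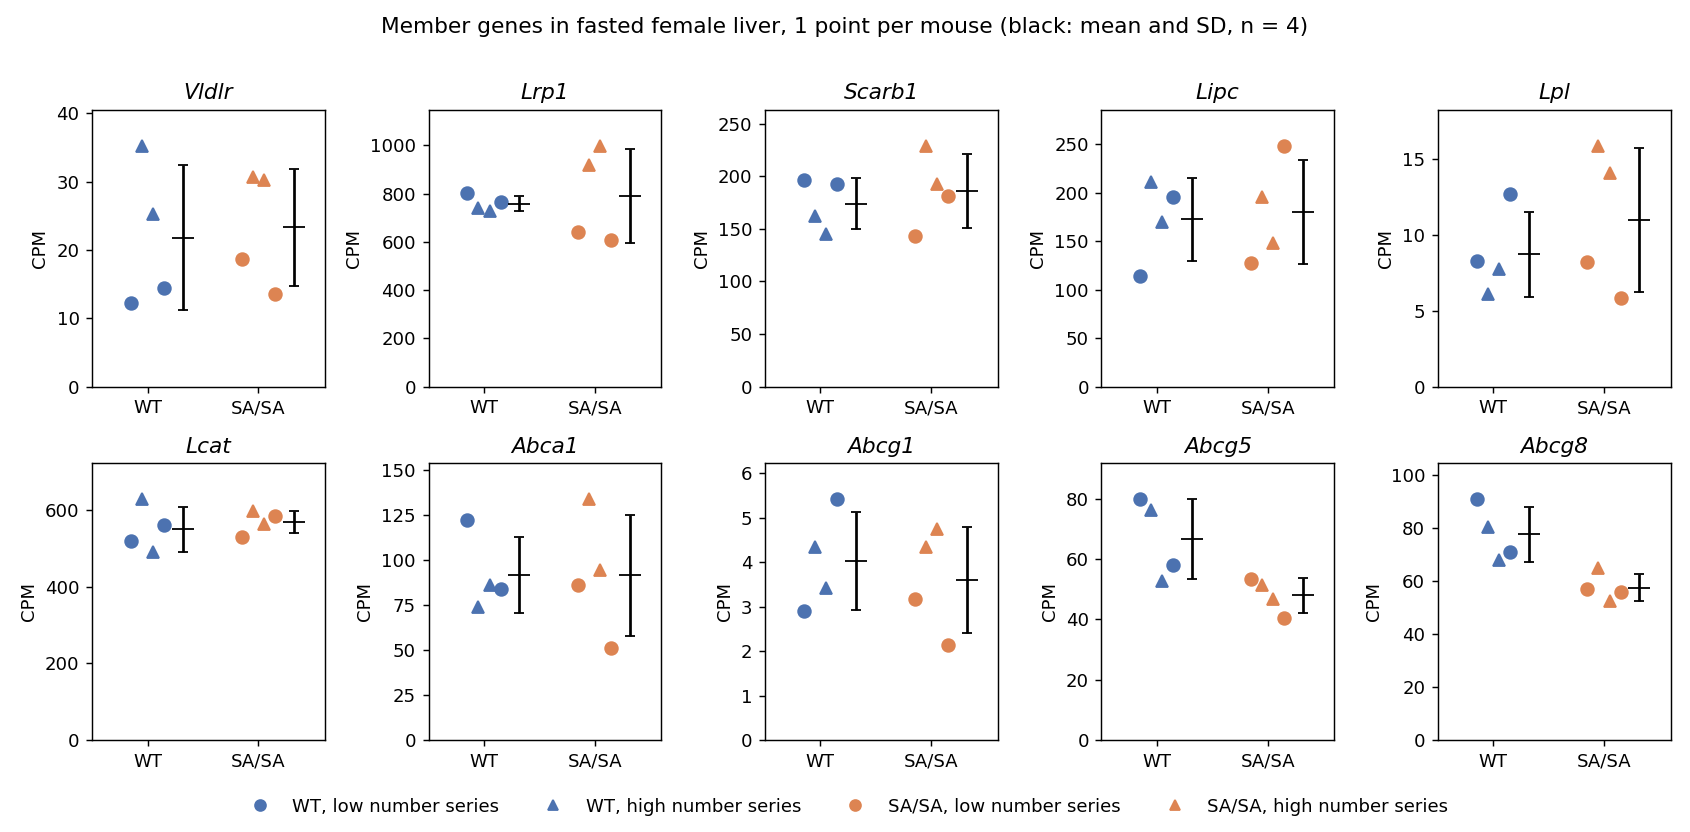
CPM of each of the 10 genes, 1 panel per gene, 1 point per mouse, with circles for the low and triangles for the high number series and black bars for the mean and SD of 4 mice. Abcg8 separates the genotypes, Vldlr separates the number series, and the Lrp1 points of SA/SA mice, at 609, 643, 917 and 998 CPM, lie on either side of the WT points.

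Lpl (ENSMUSG00000015568; chromosome 8, 68880491 to 68907448, forward strand) encodes lipoprotein lipase, which frees fatty acids from lipoproteins at the vessel wall and is low in adult hepatocytes. It was at 8.30, 6.14, 7.75 and 12.7 CPM in WT replicates 1 to 4 and at 8.19, 15.9, 14.1 and 5.83 CPM in SA/SA replicates 1 to 4. The highest mice were SA/SA replicates 2 and 3, of the high series, while in the low series both SA/SA mice were below both WT mice. Over all mice the log2 fold change of 0.33 was about the size of its standard error of 0.32 (edgeR adjusted p = 0.993, exact permutation p = 0.514), and it was 0.11 without SA/SA replicate 2 and 0.57 without WT replicate 4.

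Lipc (ENSMUSG00000032207; chromosome 9, 70798128 to 70952226, reverse strand) encodes hepatic lipase, which acts on remnants and HDL. It was at 114, 211, 170.1 and 195 CPM in WT replicates 1 to 4 and at 127, 196, 148 and 248 CPM in SA/SA replicates 1 to 4. The groups overlapped over nearly their whole ranges, and the lowest mouse of each was replicate 1. Pooled, the genotypes were 0.06 apart on the log2 scale (standard error 0.24, edgeR adjusted p = 0.996), with a difference of 0.25 in the low and -0.15 in the high series.

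The opposite differences in the number series were tested as an interaction. Of the 10 genes, 4 had an interaction at an unadjusted p under 0.05 in edgeR's test, where 11.1% of all genes tested did and 6.02% did with a value above 0. All 4 were above 0: the interaction on the log2 scale was 1.69 for Lpl (standard error 0.36, adjusted p = 0.253), 0.71 for Lrp1 (standard error 0.17, adjusted p = 0.269), 0.71 for Scarb1 (standard error 0.22, adjusted p = 0.313) and 1.09 for Abca1. edgeR called 0 of the 10 genes and 0.0% of all genes for the interaction. DESeq2 called 2 of the 10, Lpl with an adjusted p of 0.00437 and Lrp1 with an adjusted p of 0.0137, and 1.95% of all genes. Lpl, Lrp1 and Scarb1 were lower in SA/SA mice without overlap in the low series and higher without overlap in the high series, as were 4.76% of all genes tested. For Lpl the low series was close to a tie, with SA/SA replicate 1 at 8.19 CPM and WT replicate 1 at 8.30 CPM. Within the low series 7 of the 10 genes were lower in SA/SA mice, with a median difference in mean log2 CPM of -0.42 beside -0.004 over all genes tested, and within the high series 7 were higher, with a median of 0.15 beside -0.009. Lower in the low and higher in the high series were 5 of the 10 genes and 27.2% of all genes tested, and 54.9% of all genes had opposite signs in the series.

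Marker sums of some cell types were highest in the same mice as Lpl, and those of other cell types were not. In the low series the Kupffer cell and macrophage sum was 385 and 642 CPM in WT and 464 and 329 CPM in SA/SA mice, which overlapped. In the high series it was 322 and 374 CPM in WT and 678 and 536 CPM in SA/SA mice, which did not overlap. The 3 mice with the highest sum were the 3 with the highest Lpl, and 2 of them were among the 3 with the highest Abcg1. The same was true of the lymphocyte sum, while the hepatocyte sum shared 2 of its 3 highest mice with Lpl and 1 with Abcg1. The sinusoidal endothelial, stellate and pancreatic acinar sums shared 1 with each gene. The cholangiocyte sum, mostly Spp1, and the red blood cell sum shared 1 with Lpl and 2 with Abcg1. The adipocyte sum, mostly Cidec, shared 0 with each. The hepatocyte marker sum, 75.8% of it from Alb, also differed within each series. It was lower in both SA/SA mice of the low series, 87077 and 93085 CPM beside 97218 and 108451 CPM in WT mice. In the high series it was higher in both, 118617 and 126902 CPM beside 88655 and 99338 CPM. Single markers of the list did not all follow the sum. In the low series Alb, Apob and Tat were lower in both SA/SA mice, and the others overlapped. In the high series Alb, Cps1, Hnf4a, Tat and Cyp2e1 were higher in both, and Apob overlapped. Ttr and Serpina1c were lower in both there, Ttr at 4794 and 4416 CPM beside 5159 and 5291 CPM in WT mice. The part of any of these cells in the levels of Lpl, Abcg1, Lrp1 and Scarb1 was not tested. In whole liver, fewer cells of a type and less RNA per cell cannot be told apart.

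**Figure D5:**
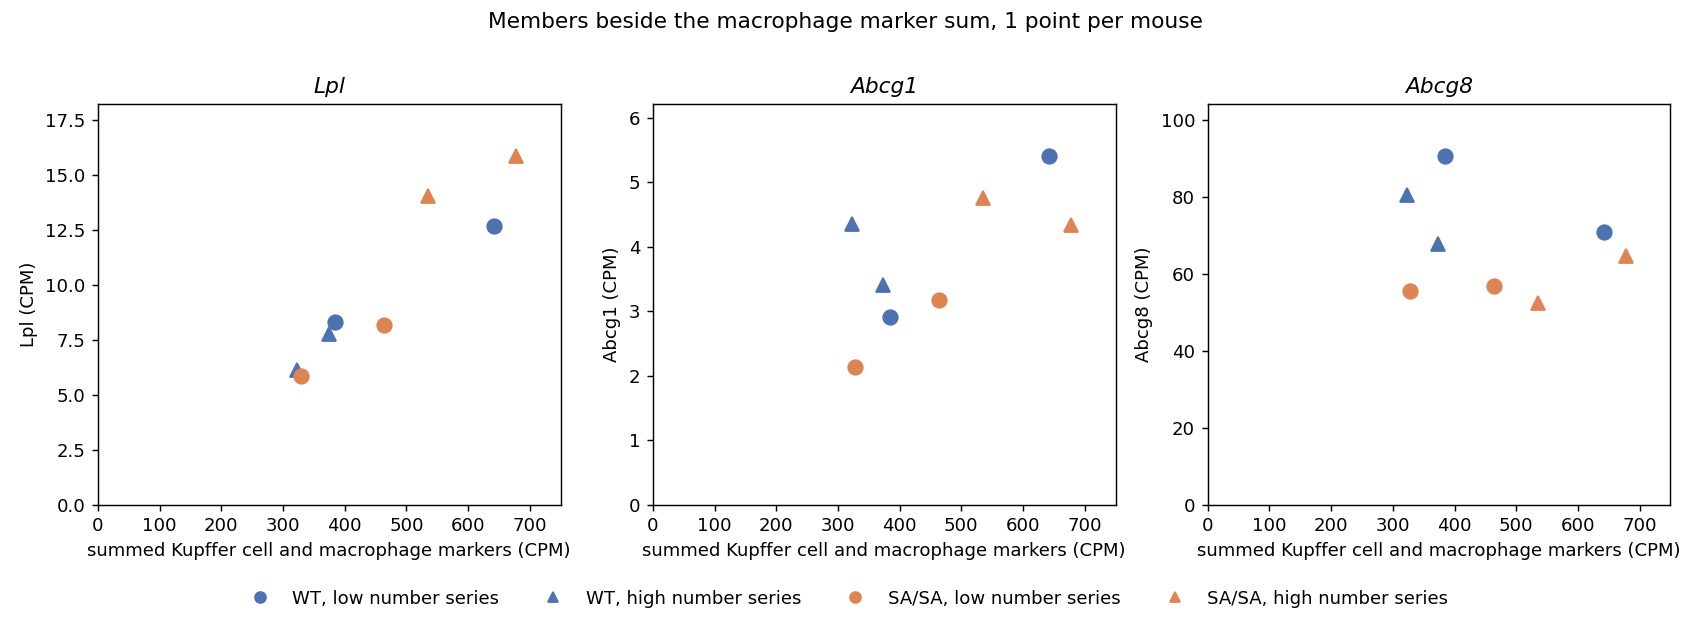
Lpl, Abcg1 and Abcg8, each in CPM, against the summed CPM of the 11 Kupffer cell and macrophage markers, 1 point per mouse. The 3 mice with the highest marker sums, from 536 to 678 CPM, have the 3 highest Lpl values, from 12.7 to 15.9 CPM, while Abcg8 is between 52.4 and 71.0 CPM in them.

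Genes of the surrounding pathways gave few differences. Of 17 receptor and helper genes tested of 19 listed, 0 passed an adjusted p of 0.05 in edgeR or DESeq2, as in the lists that follow, with 5 log2 fold changes above 0 and a median of -0.09. Stab1, a scavenger receptor gene of sinusoidal endothelium, was at 52.2 ± 6.28 CPM in WT and 71.1 ± 17.6 CPM in SA/SA mice (log2 fold change 0.45, unadjusted p = 0.0326, adjusted p = 0.993 in edgeR's test). Lrp6, a coreceptor of Wnt signalling, was at 58.7 ± 5.86 CPM in WT and 49.2 ± 1.21 CPM in SA/SA mice (log2 fold change -0.26, unadjusted p = 0.0223, adjusted p = 0.993 in edgeR's test). Lrp6 did not overlap between genotypes, nor did Scarb2, Apoc2 and Ncoa1 of the pathway lists, named after their values were seen. All had lower means in SA/SA mice, beside the 1.36% of all genes tested that did not overlap and were lower. They come from lists with 17, 13, 19 and 20 genes tested, which share some genes. For Scarb2, Apoc2 and Ncoa1 the log2 fold changes were -0.14, -0.18 and -0.18. Their unadjusted p-values in edgeR's test were 0.127, 0.165 and 0.121, with an adjusted p of 0.993 for each. Of 13 lipase and lipase regulator genes tested of 14, 0 passed and 0 had an unadjusted p under 0.05, with a median log2 fold change of -0.07. Of 19 genes of sterol efflux and intracellular sterol traffic tested of 21, 0 passed and 0 had an unadjusted p under 0.05, with a median of 0.02.

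The LXR list of 20 genes, which holds 5 of the 10 genes described here, had 0 genes past the adjusted threshold and 4 lower at an unadjusted p under 0.05, Abcg5 and Abcg8 among them, where 1.98% of all genes tested were lower at this level. Among the other 15 genes 8 had a log2 fold change above 0, and the median was 0.04. Both that were lower at an unadjusted p under 0.05, Scd1 and Ncor1, are named after their values were seen. Scd1, the stearoyl-CoA desaturase gene, was at 1691 ± 1078 CPM in WT and 633 ± 383 CPM in SA/SA mice, -1.42 on the log2 scale (standard error 0.50, edgeR adjusted p = 0.993), and within the series -0.38 in the low and -2.33 in the high. Ncor1, a nuclear corepressor gene, was at 83.5 ± 9.71 CPM in WT and 69.5 ± 7.76 CPM in SA/SA mice (log2 fold change -0.27, unadjusted p = 0.0496, adjusted p = 0.993 in edgeR's test).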

How the data were processed

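Per the labels, liver RNA of 8 mice was sequenced as stranded mRNA libraries read in pairs. The deposited values are the authors' estimated counts from salmon, summed per gene, scaled for transcript length and not for library size. The submitters' processing notes name bcl2fastq, STAR, SAMtools, MultiQC, DESeq2 and GRCm38 without roles. The salmon version, the annotation and the use of strand are not given in the sources used here. Length scaling can move a gene whose isoforms differ between mice. Of 45706 identifiers, 45143 were in GENCODE M21, from which coordinates and lengths were taken (the APPRIS principal transcript, or the longest coding one for Vldlr, Scarb1, Lipc and Abcg8).

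Counts were rounded. After filterByExpr, which kept 14629 genes, and TMM, genotypes were compared with the quasi-likelihood test of edgeR 4.0.16 (R 4.3.3) and Benjamini-Hochberg adjustment over all genes tested. Standard errors come from the F statistic, and 2 is the prior count of log2 CPM. The interaction and the number series were tested in fits with 2 mice per genotype and series. Exact permutation tests were two-sided over 70 assignments, and pairings of 8 mice over 40320. Intervals of counts were not used, since the spread between mice sets the error. The chi-square per gene between the most alike libraries was 41.7, so none was a copy. Promoters of 7 of the 10 genes were matched by symbol in RefSeq. The tests were checked on simulated counts.

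The 10 genes, the lists of receptors, lipases, sterol traffic, LXR and cell type markers, and the alternatives (DESeq2 1.42.0, limma-voom 3.58.1, other scalings and filters, a robust fit, blocks, each mouse left out) were chosen with earlier results of these data known. The genes named are the 10, Plin5, and from each list the called genes and up to 2 higher and 2 lower with the smallest unadjusted p under 0.05. Scarb2, Apoc2 and Ncoa1 were named outside this rule, because their genotypes did not overlap.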

Additional observations from a re-analysis of the deposited data

Results flagged for a closer look

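Plin5 in WT replicate 1 was at 254 CPM, apart from the other WT mice at 182 to 194 CPM by Dixon's test. Chance marks about 1.5 of the 30 groups of 4 mice searched.

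For 3 genes both SA/SA mice lay below both WT mice in the low number series and above both in the high series. Lpl did so narrowly in the low series, where SA/SA replicate 1 was at 8.19 CPM and WT replicate 1 at 8.30 CPM. The genotype difference in mean log2 CPM of Lpl was -0.57 in the low and 1.11 in the high series, 1.68 apart. That of Scarb1 was -0.27 and 0.45, 0.72 apart, and that of Lrp1 was -0.33 and 0.38, 0.71 apart. The test of the interaction gave no adjusted p under 0.05 in edgeR for any of them and an adjusted p under 0.05 in DESeq2 for Lpl and Lrp1.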

How the results depend on the processing

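Precision is limited by 4 mice per genotype and 2 per genotype and series, and for Abcg1 also by its 108 to 274 counts per mouse. No gene of the 10 was called between genotypes under any alternative, and the log2 fold changes of Abcg5, Abcg8 and Lpl kept their direction under all of them. The smallest adjusted p of Abcg5 and Abcg8 in edgeR or limma was 0.798 for both. DESeq2 in place of edgeR called 6 genes between genotypes, 285 genes and 2 of the 10 for the interaction (Lrp1 0.71, Lpl 1.69), and 406 genes and 1 of the 10 for the series (Vldlr 1.05). Abca1 was then at 0.0015, and at 0.0014 with DESeq2 size factors in edgeR. With library size alone, the median interaction of all genes moved to -0.16, the interaction of Lcat to -0.14, and the series difference to -0.045 for Scarb1 and -0.016 for Lcat. The cause was not tested.

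With each mouse left out in turn, genes called for the interaction ranged from 0 to 40 (40 without WT replicate 4, 5 without SA/SA replicate 2, 1 without WT replicate 3), genes called for the series from 0 to 111 and of the 10 genes from 0 to 1 (111 and Vldlr, 1.12, without WT replicate 3, and 1 gene without SA/SA replicate 2 or 4). The genes of the 10 without overlap ranged from 1 to 2 (2 without WT replicate 3 or SA/SA replicate 1, with Abcg5 added). The exact permutation p ranged from 0.0286 to 0.143 for Abcg5 and from 0.0286 to 0.0571 for Abcg8, which was at 0.0571 without WT replicate 1 or 2 or SA/SA replicate 1, 3 or 4.

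These log2 fold changes between genotypes changed sign, so their direction rests on single mice: Vldlr -0.095 to 0.43, Lrp1 -0.071 to 0.17, Scarb1 -0.0090 to 0.21, Lipc -0.13 to 0.19, Lcat -0.00045 to 0.12, Abca1 -0.24 to 0.20 and Abcg1 -0.32 to 0.024. Lpl ranged from 0.11 to 0.57 without a change of sign. The interaction of Lipc ranged from -0.86 to 0.14, of Lcat from -0.16 to 0.20 and of Abcg5 from -0.085 to 0.45. Those of Lpl (1.35 to 1.97), Lrp1 (0.65 to 0.77), Scarb1 (0.55 to 0.89) Abca1 (0.77 to 1.52), Abcg1 (0.36 to 1.26) and Abcg8 (0.00042 to 0.35) stayed above 0. The series difference ranged from -0.12 to 0.13 for Scarb1, -0.096 to 0.36 for Lipc, -0.045 to 0.53 for Lpl, -0.021 to 0.12 for Lcat, -0.063 to 0.40 for Abca1, -0.11 to 0.095 for Abcg5 and -0.11 to 0.053 for Abcg8. The r of Abca1 with Abcg1 ranged from -0.25 to 0.65.

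Replicate numbers are shared by the genotypes. The correlations of same-numbered mice were low, at 0.056, 0.17, -0.11 and 0.13 for replicates 1 to 4, though 3 of 4 were best with their own number. These values do not settle whether the mice were paired, since same-numbered mice are also of the same number series. With a replicate block, 0 genes were called and 579 had an unadjusted p under 0.05 beside 497 without it, with Abcg8 at -0.43 and Abcg5 at -0.46. With the series as a block these counts were 0 and 621.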
